A study of Mus musculus with 18 samples.

Results

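DMC1 hotspots of B6 x CAST F1 hybrid males were set against those of inbred B6 males that carry the B6/B6 genotype of Prdm9. An autosomal F1 hotspot counted as shared when the nearest B6/B6 hotspot centre lay within 1000 bp, which took in 3359 of 18740 F1 hotspots. The other 15381 F1 hotspots had no B6/B6 centre that close. Read from the other side, 3358 of 16974 B6/B6 hotspots were kept in the hybrid and 13616 were lost. F1 hotspots were further divided by their B6 share, the fraction of DMC1 reads that came from the B6 chromosome, into classes below 0.1, 0.1 to 0.9 and above 0.9.

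The hybrid males were about 10 weeks old, carried 1 B6 and 1 CAST allele of Prdm9 and had 1 B6 and 1 CAST copy of every autosome. For the B6/B6 map the submitters re-analysed a library that others had deposited, and the age of its males is not stated here. Each map came from whole testis and 1 library, so no replicate spread exists for any DMC1 value, and genotype and source of the library cannot be told apart in any difference between these maps. Maps used for comparison came from B6/Hum males, whose second Prdm9 allele is humanized, from infertile PWD x B6 F1 males with the PWD and B6 alleles, and from reciprocal B6 x PWD F1 males with the B6 and PWD alleles. Maps without a B6 allele came from rescue PWD x B6 F1 males (PWD and humanized alleles), B6 x PWD F1 males with the humanized and PWD alleles, here called Hum/PWD F1, PWD/PWD males and Hum/Hum males on B6. Males of these maps were also about 10 weeks old. H3K4me3 came from 1 library of B6/B6 whole adult testis, which the submitters had divided into pseudoreplicates, with the input library of Hum/Hum males.

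PRDM9 is a zinc-finger protein that binds particular DNA sequences in early meiosis and places H3K4me3 there, after which SPO11 cuts the DNA. DMC1 is the meiotic strand-exchange protein that coats the single-stranded DNA beside the break, so its ChIP-seq signal marks where breaks were made or were waiting for repair. Alleles of Prdm9 differ in their zinc fingers and so in the sites they bind. A binding site that is cut is copied from the uncut homolog, so over generations a lineage tends to lose the sites of its own PRDM9.

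The sequences of 4 hotspots are shown because each was the hottest of its set among sites without high input, meaning an H3K4me3 input count of at most 10 times the table median: the shared hotspots with B6 shares below 0.1 (near Cdh6), 0.1 to 0.9 (Cop1) and above 0.9 (Pcdh9), and the lost hotspot at Dip2c. Heat is the authors' relative DMC1 signal per hotspot. The input limit left out a shared middle-class hotspot with a heat of 1145.5, the highest of that class. A further 4 were chosen after their letters were read, as the hottest of the same sets that hold any of 10 words described next: Adgrb3, Ankfn1, Fto and, among lost hotspots, Agpat5. Each is the 201 bp around the hotspot centre on the + strand of GRCm38.p6 (mm10), taken from the RefSeq genome sequence, and capitals mark the words. The windows are Cdh6 at chr15:14255003-14255203, Cop1 at chr1:159306544-159306744, Pcdh9 at chr14:93257093-93257293, Dip2c at chr13:9622069-9622269, Adgrb3 at chr1:25534822-25535022, Ankfn1 at chr11:89611860-89612060, Fto at chr8:91618537-91618737 and Agpat5 at chr8:18877521-18877721. These letters are those of the B6 reference, and CAST letters at the same sites were not analysed here.
Cdh6: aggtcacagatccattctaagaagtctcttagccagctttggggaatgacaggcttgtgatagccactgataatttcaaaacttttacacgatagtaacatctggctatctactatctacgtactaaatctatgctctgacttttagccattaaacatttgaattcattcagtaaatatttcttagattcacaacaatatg
Cop1: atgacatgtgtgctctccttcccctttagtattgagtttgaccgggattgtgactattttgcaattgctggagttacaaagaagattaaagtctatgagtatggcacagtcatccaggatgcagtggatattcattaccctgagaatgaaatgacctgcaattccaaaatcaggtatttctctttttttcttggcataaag
Pcdh9: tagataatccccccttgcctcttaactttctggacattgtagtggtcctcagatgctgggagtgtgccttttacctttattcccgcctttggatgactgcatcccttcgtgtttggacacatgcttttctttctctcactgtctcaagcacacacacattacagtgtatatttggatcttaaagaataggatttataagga
Dip2c: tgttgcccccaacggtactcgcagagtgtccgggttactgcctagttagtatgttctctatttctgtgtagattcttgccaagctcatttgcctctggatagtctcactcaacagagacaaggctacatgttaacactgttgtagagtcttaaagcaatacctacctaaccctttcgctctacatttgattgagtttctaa
Adgrb3: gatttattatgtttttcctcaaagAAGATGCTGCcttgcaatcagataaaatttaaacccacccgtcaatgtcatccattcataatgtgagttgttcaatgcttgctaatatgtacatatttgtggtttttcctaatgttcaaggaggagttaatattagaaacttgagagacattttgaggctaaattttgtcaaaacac
Ankfn1: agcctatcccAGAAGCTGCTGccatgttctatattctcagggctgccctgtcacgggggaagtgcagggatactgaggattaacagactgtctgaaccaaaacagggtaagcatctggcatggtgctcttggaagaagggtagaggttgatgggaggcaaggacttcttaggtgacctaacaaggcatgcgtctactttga
Fto: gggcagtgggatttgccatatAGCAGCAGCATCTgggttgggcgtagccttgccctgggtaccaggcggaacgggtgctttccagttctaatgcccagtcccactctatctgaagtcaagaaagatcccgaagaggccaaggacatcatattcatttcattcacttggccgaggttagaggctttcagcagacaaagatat
Agpat5: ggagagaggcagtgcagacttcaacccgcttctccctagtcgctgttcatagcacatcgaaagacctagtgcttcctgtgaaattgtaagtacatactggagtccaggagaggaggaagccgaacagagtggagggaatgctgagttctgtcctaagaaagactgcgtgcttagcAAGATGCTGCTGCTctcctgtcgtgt

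The capitals belong to a list of 10 words of 10 letters, chosen on odd chromosomes as those with the largest excess in 201 bp windows at B6/B6 hotspot centres over windows 2000 bp to either side. The words are AGCAGCAGCA, AGATGCTGCT, CAGCAGCAGC, CAGCAGCATC, GGCAGCAGCA, CTGCTGCTGC, ATGCTGCTGC, AGAAGCTGCT, CAGCAGCTTC and AAGATGCTGC, searched on both strands, and most overlap one another. On even chromosomes, 6.31% of kept B6/B6 hotspots (Wilson 95% interval 5.23 to 7.58) and 6.22% of lost ones (5.66 to 6.83) held such a word, against 0.819% and 1.07% of the windows 2000 bp away. The intervals of kept and lost hotspots overlapped. Shared F1 hotspots held one in 6.17% of cases below a B6 share of 0.1, 5.69% between 0.1 and 0.9 and 5.80% above 0.9, the last from 69 windows with an interval of 2.28 to 14.0. Unshared F1 hotspots held one in 2.33% (1.46 to 3.69), 0.671% and 0.517% of cases in the same order of classes. Their shares 2000 bp away were 1.03%, 0.834% and 0.930%, so in unshared hotspots above a B6 share of 0.1 the words were no more common than in flanking sequence.

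A second list was chosen in the same way from unshared F1 hotspots with a B6 share above 0.9, and is led by CACATTCCCA, AAAGGTCACA and GGAATGTGAC. Its words stood in 6.61% (5.21 to 8.35) of such hotspots on even chromosomes, against 0.568% of windows 2000 bp away. Among unshared hotspots with a B6 share of 0.1 to 0.9 the share was 5.33% (4.73 to 5.99). Below 0.1 it was 1.37%, the same as in the windows 2000 bp away, and shared F1 hotspots as a whole held such a word in 1.82% of cases, against 0.455% in their windows 2000 bp away. In B6 letters, unshared hotspots read mostly from the CAST chromosome thus lacked an excess of this list. Those read mostly from the B6 chromosome had one, as did the middle class, with 0.854% in its windows 2000 bp away. A list can favour the class it was chosen on, and none was chosen on the class below 0.1. A word in a window is a description of its letters and does not show where PRDM9 was bound.

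Shared sites made up 17.9% of F1 hotspots (Wilson 95% interval 17.4 to 18.5) and carried 19.3% of F1 heat. The kept sites made up 19.8% of B6/B6 hotspots (19.2 to 20.4) but carried 39.6% of B6/B6 heat. In the F1 map the median heat was 47.0 at shared and 40.2 at unshared hotspots. In the B6/B6 map it was 147.85 at kept and 40.1 at lost hotspots. Being present in both maps therefore went with high heat in the B6/B6 map and with only slightly higher heat in the F1 map. Over all hotspots the 2 maps had similar medians and sums, with a median of 41.4 (6.1 to 3024.8) in F1 males and 49.1 (7.5 to 1083.1) in B6/B6 males, and sums of 1488569.4 and 1418964.5.

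Pairs were close. The centres of 1947 shared pairs lay within 100 bp and those of 773 more within 200 bp. From 500 to 1000 bp there were 137 pairs, or 27.3 per 100 bp of distance, a density close to the 24.7, 27.2 and 26.2 per 100 bp found in the next 3 kilobases. Pairs more than 500 bp apart also had other values, with a median B6 share of 0.476 against 0.2055 for pairs within 100 bp. Heat on the B6 chromosome, defined below, had a rank correlation with B6/B6 heat of 0.280 in the wide pairs and 0.702 in pairs within 100 bp. All rank correlations here are Spearman's rho across sites, which share 2 libraries and are not replicates, and they carry no p-value.

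Read by chromosome of origin, shared hotspots leaned to the CAST chromosome. Their median B6 share was 0.239 (quartiles 0.061 and 0.504, n = 3191 with a share), against 0.519 (0.35 and 0.727, n = 13803) at unshared F1 hotspots. Of shared hotspots, 33.6% (31.9 to 35.2) had a B6 share below 0.1, against 11.4% (10.9 to 11.9) of unshared ones. The middle class held 62.2% of shared and 73.3% of unshared hotspots. At the other end, 4.26% (3.61 to 5.02) of shared hotspots had a B6 share above 0.9, against 15.3% (14.7 to 15.9) of unshared ones. The 168 shared and 1578 unshared hotspots without a deposited share are left out of these percentages, and the number of informative reads behind a share is unknown.

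**Figure D1:**
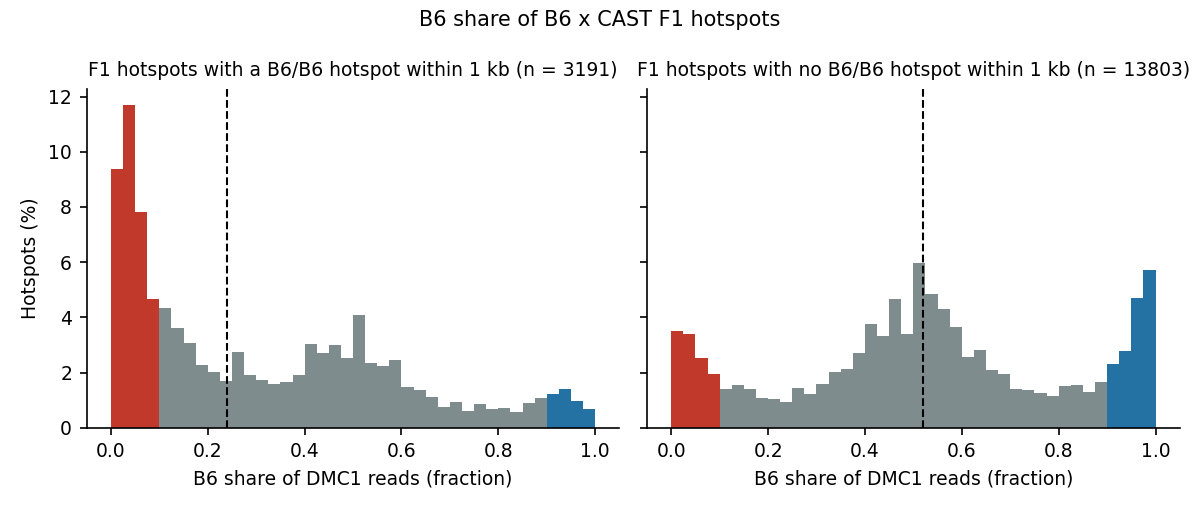
Percent of hotspots (y axis) by B6 share of DMC1 reads (x axis, from 0 for CAST to 1 for B6), for F1 hotspots shared with the B6/B6 map (n = 3191) and for unshared ones (n = 13803). Dashed lines are medians, and red, grey and blue mark the classes below 0.1, 0.1 to 0.9 and above 0.9. Shared hotspots pile up below 0.1, where 33.6% of them lie, and unshared ones spread around their median of 0.519.

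Hotspots read almost wholly from the CAST chromosome were the hot ones of the shared set. With a B6 share below 0.1, shared hotspots had a median F1 heat of 124.3 (quartiles 76.05 and 201.5, n = 1071). Between 0.1 and 0.9 the median was 30.5 (19.8 and 54.9, n = 1984), and above 0.9 it was 64.55 (32.6 and 118, n = 136). The median below 0.1 was 4.08 times that of the middle class and 1.93 times that above 0.9. The class below 0.1 held 55.2% of the F1 heat of all shared hotspots, the middle class 36.0% and the class above 0.9 only 4.52%.

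In the B6/B6 map the order of the same sites was turned round. Their median B6/B6 heat was 71.7 below 0.1, 199.5 from 0.1 to 0.9 and 245.1 above 0.9. F1 heat exceeded B6/B6 heat at 715 sites of the class below 0.1 (66.8%), at 193 of the middle class (9.73%) and at 29 of the class above 0.9 (21.3%). The median ratio of F1 to B6/B6 heat was 1.68, 0.196 and 0.273 in the same order. In relative heat, a site seen mainly on the CAST chromosome was thus typically higher in the hybrid than in B6/B6 males. A site seen on both was typically several-fold lower. Heat is relative within a map, so these ratios do not give absolute gains or losses.

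Unshared F1 hotspots kept part of this pattern. Both one-sided classes were hot, with a median heat of 92.0 below 0.1 and 134.8 above 0.9, against 31.85 in the middle class. Below 0.1 the median was 2.89 times that of the middle class and above 0.9 it was 4.23 times. Shared and unshared sets differed in which one-sided class was the hotter: the ratio of the medians below 0.1 to above 0.9 was 1.93 in shared and 0.682 in unshared hotspots. With 1 library there is no test of that difference.

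**Figure D2:**
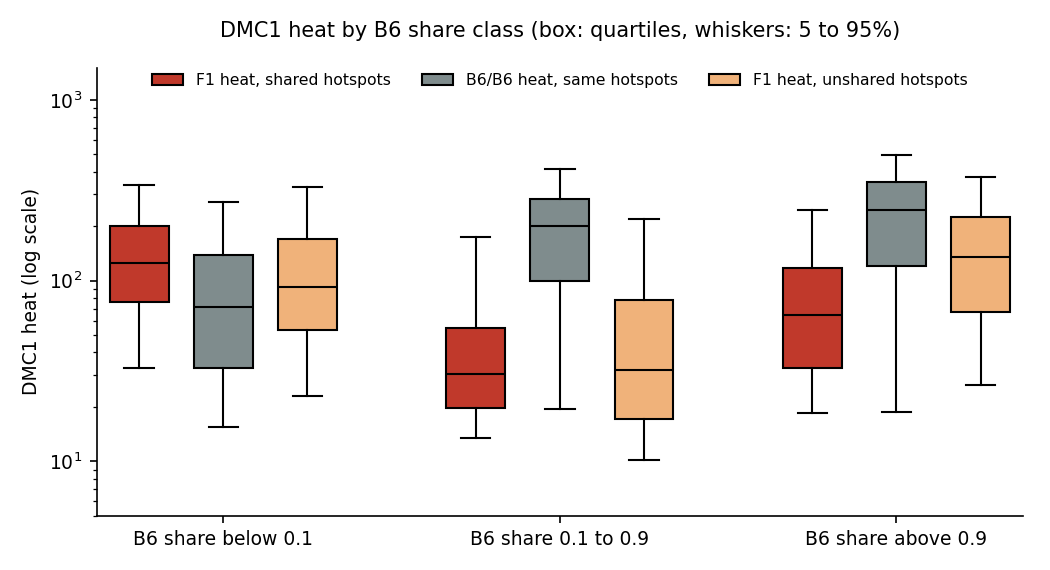
DMC1 heat (y axis, log scale, relative units) by B6 share class (x axis), for the F1 map at shared sites, the B6/B6 map at the same sites and the F1 map at unshared sites. Boxes span the quartiles with the median as a line, and whiskers run from the 5th to the 95th percentile. F1 heat is highest below 0.1 at shared sites (median 124.3), where B6/B6 heat is lowest (median 71.7).

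Individual sites show the range. Below 0.1 the hottest shared hotspot lay 1081428 bp from Cdh6, a cadherin gene, at chr15:14255103, with a heat of 587.4 in F1 males at a B6 share of 0.006 and 40.3 in B6/B6 males. Next came a site in an intron of Kcnk10, a potassium channel gene, at chr12:98555803, with 569.1 in F1 males at a share of 0.046 and 517.9 in B6/B6 males. The third, in a non-coding exon of Phtf2 at chr5:20789228, had 567.7 in F1 males at a share of 0.001 and 32.2 in B6/B6 males. Of these 3, Kcnk10 alone was also hot in B6/B6 males, where its bin held 57 and 53 H3K4me3 fragments in the pseudoreplicates, against 9 and 15 at Cdh6 and 5 and 8 at Phtf2.

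In the middle class the hottest site without high input lay in a coding exon of Cop1, a ubiquitin ligase gene, at chr1:159306644. Its heat was 436.4 in F1 males at a share of 0.498 and 151.5 in B6/B6 males, but the paired centres were 966 bp apart. An intronic site of Ankfn1 at chr11:89611960 had 410.8 in F1 males at a share of 0.558 and 638.9 in B6/B6 males, with centres 31 bp apart. The hotspot 16390 bp from Siah2, a further ubiquitin ligase gene, at chr3:58658548 had 410.1 in F1 males at 0.422 and 41.9 in B6/B6 males. Ankfn1 was thus the one of these 3 that was hotter in B6/B6 males.

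Above 0.9 an intronic site of Pcdh9, a protocadherin gene, at chr14:93257193 had 481.3 in F1 males at a share of 0.908 and 226.3 in B6/B6 males. The site 3794 bp from Nedd1, a centrosome gene, at chr10:92680952 had 442.4 in F1 males at 0.996 and 588.2 in B6/B6 males. An intronic site of the non-coding gene Sox2ot at chr3:34587975 had 379.4 in F1 males at 0.989 and 23.4 in B6/B6 males, with centres 351 bp apart and an H3K4me3 enrichment of 0 in B6/B6 males. The hottest unshared site of each class had 614.6 near Vgll3 (share 0.011), 590.3 near Tpd52 (0.513) and 634.1 near Adgrl4 (0.981).

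The largest ratios of F1 to B6/B6 heat all belonged to CAST-chromosome sites. They were 41.6 in an intron of Pde4d (341.3 in F1 and 8.2 in B6/B6 males, share 0.012), 37.5 at 16263 bp from Apela (405.1 and 10.8, share 0.007) and 32.1 in an intron of Reln (539.9 and 16.8, share 0.016). These 3 B6/B6 heats were low in a map whose lowest heat was 7.5. H3K4me3 enrichment in B6/B6 males was 0 at Pde4d and Apela and 0.00593 at Reln, and the Apela centres were 357 bp apart. The lowest ratios were found at sites with B6 shares of 0.605 to 0.886. They were 0.0343 in an intron of Impa1 (11.9 in F1 and 346.7 in B6/B6 males), 0.0357 near Mettl25 (12.3 and 344.6) and 0.0383 in an intron of Cdk14 (13.4 and 349.6).

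Across all shared sites F1 heat and B6/B6 heat were nearly unrelated in rank, with a rho of -0.04 (n = 3359, or -0.0669 at the 3191 with a B6 share). Per chromosome the rho ran between -0.225 on chromosome 10 and 0.119 on chromosome 16 and was above 0 on 4 of 19. F1 heat was then divided by chromosome, as heat times the B6 share for the B6 chromosome and heat times the rest for the CAST chromosome. Heat on the B6 chromosome had a rho of 0.606 with B6/B6 heat (n = 3191), above 0 on 19 of 19 chromosomes with a range of 0.414 to 0.705. Heat on the CAST chromosome had a rho of -0.243, below 0 on all of them (-0.428 to -0.0729). The whole-site heat is the sum of a portion that ranked with B6/B6 heat and a portion that ranked weakly against it.

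Those products contain the B6 share, so the share was also read alone. It had a rho of 0.501 with B6/B6 heat and -0.530 with F1 heat. By rank, sites hotter in B6/B6 males therefore had higher B6 shares in the hybrid, and sites hotter in the hybrid had lower ones. The second relation was not steady. Median F1 heat was 124.3 below a share of 0.1, 30.5 from 0.1 to 0.9 and 64.55 above 0.9. Within a class of B6 share the rho of F1 and B6/B6 heat was 0.116 below 0.1, 0.293 from 0.1 to 0.9 and 0.128 above 0.9, all above the pooled value. In bins 0.1 wide it peaked at 0.616 between 0.2 and 0.3 (n = 258), was 0.486 between 0.1 and 0.2 and 0.363 between 0.4 and 0.5, and fell to 0.103 between 0.8 and 0.9 (n = 105). The rho was thus above 0 within every class and every bin, while from the class below 0.1 to the middle class median heat dropped in the hybrid and climbed in B6/B6 males.

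**Figure D3:**
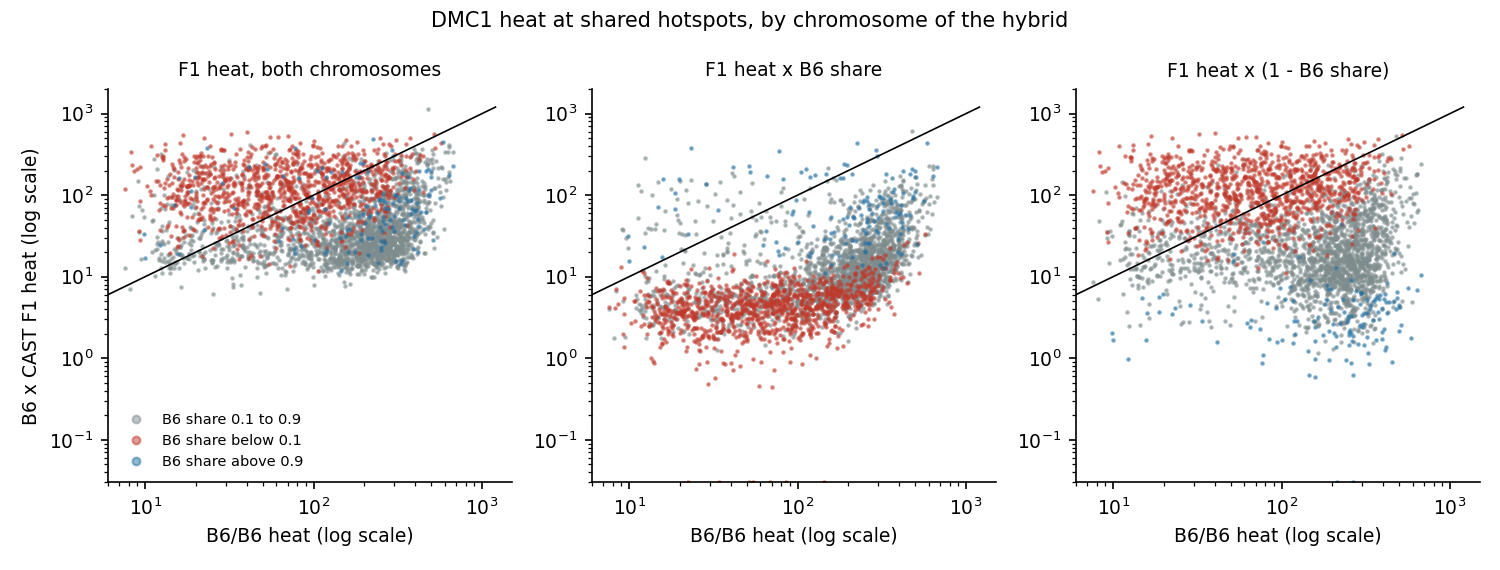
F1 heat (y axes, log scale) against B6/B6 heat (x axes, log scale) at shared sites with a B6 share (n = 3191). Panels show the whole site, its B6 chromosome portion and its CAST chromosome portion, coloured by B6 share class. The diagonal marks equal heat, and values under 0.03 are drawn at 0.03. The whole-site cloud is nearly flat (rho -0.0669), the B6 portion rises (rho 0.606) and the CAST portion slopes down (rho -0.243).

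By decile of B6/B6 heat the B6 and CAST portions were far apart at cold sites and alike at hot ones. In the coldest decile of shared sites (median B6/B6 heat 16.4) the median F1 heat was 68.5, of which the B6 chromosome carried a median of 4.45 and the CAST chromosome 50.5. In the hottest decile (396.15) it was 79.95, with 32.2 on the B6 and 31.9 on the CAST chromosome. Between them the whole-site median was lowest in the 7th decile, at 32.5. The share of sites below 0.1 was 54.0% in the coldest and 6.13% in the hottest decile, and the median B6 share 0.079 and 0.508.

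The B6 portion over B6/B6 heat had a median of 0.0687. Hybrid males have fewer B6 copies of each site and of Prdm9 than B6/B6 males, and heat is relative within a map, so the ratio for a site used equally per copy is not known. The ratio exceeded 1 at 87 of 3191 sites (2.73%). Those 87 were unlike the others: their centres were a median of 342 bp from the B6/B6 centre, against 69 bp, 40.2% of pairs were more than 500 bp apart, against 2.87%, and the median B6/B6 heat was 24.5, against 153.65. Below a B6 share of 0.1, where the class itself keeps the B6 portion low, that portion had a rho of 0.344 with B6/B6 heat. Its median was 3.95 (quartiles 2.69 and 5.53, n = 827) at sites up to the median B6/B6 heat and 6.17 (4.49 and 8.14, n = 244) at hotter ones.

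The relation also depended on which sites were read. Among the 1680 colder shared sites the rho of the B6 portion and B6/B6 heat was 0.190, and among the 1679 hotter ones 0.527. For the whole site the values were -0.0889 and 0.208. For the CAST portion they were -0.127 and 0.0150, so a negative rho of the CAST portion was found only in the colder set of these 2.

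H3K4me3 in B6/B6 testis, a readout the pairing did not use, followed the same division. The enrichment is the authors' estimate of ChIP signal over local background in the 1 kb bin centred on the hotspot, with a minimum of 0. At shared sites it had a rho of 0.703 with B6/B6 heat, -0.0997 with F1 heat, 0.548 with F1 heat on the B6 chromosome and -0.251 with F1 heat on the CAST chromosome. Its median was 0.548 below a B6 share of 0.1, 1.72 from 0.1 to 0.9 and 2.20 above 0.9. Within these classes its rho with B6/B6 heat was 0.644, 0.592 and 0.712, and with F1 heat 0.0287, 0.260 and 0.0329. The mark measured in B6/B6 testis therefore ranked with the heat of B6/B6 males in every class and weakly or not with the heat of hybrid males. The H3K4me3 of B6 x CAST testis was not analysed here.

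The share of B6/B6 hotspots kept in the hybrid was larger among hot ones, and most hotspots of every decile but the hottest were lost. By decile of B6/B6 heat, 7.01% of the coldest hotspots (5.89 to 8.32, n = 1698) and 69.0% of the hottest (66.7 to 71.1, n = 1698) were kept. The deciles between kept 7.96, 8.43, 9.36, 10.7, 12.6, 16.1, 20.6 and 36.1%, each more than the last, and most of the gain lay in the top 3. Deciles 6 to 8 still lost 87.4, 83.9 and 79.4%. The colder 5 of the 10 deciles held 56.9% of all lost hotspots, little more than their share of the map. Lost hotspots still carried 60.4% of B6/B6 heat, and 527 of them were in the hottest decile. Per chromosome the kept share ran between 14.7% on chromosome 19 and 23.1% on chromosome 14.

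Some lost hotspots were among the strong ones of the B6/B6 map. The hottest without high input was an intronic site of Dip2c at chr13:9622169 with a B6/B6 heat of 463.7, where the nearest F1 centre was 66551 bp away. It was followed by sites in an intron of Uggt2, a glycoprotein-folding enzyme gene (451.6), in a coding exon of Steap1, a metalloreductase family gene (449.4), at 20457 bp from Tph2, the neuronal tryptophan hydroxylase gene (448.5), and in an intron of Mdn1, a ribosome-assembly gene (447.1). Their nearest F1 centres were 22144 to 142967 bp away. All 5 were present in the B6/Hum, infertile and reciprocal maps.

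**Figure D4:**
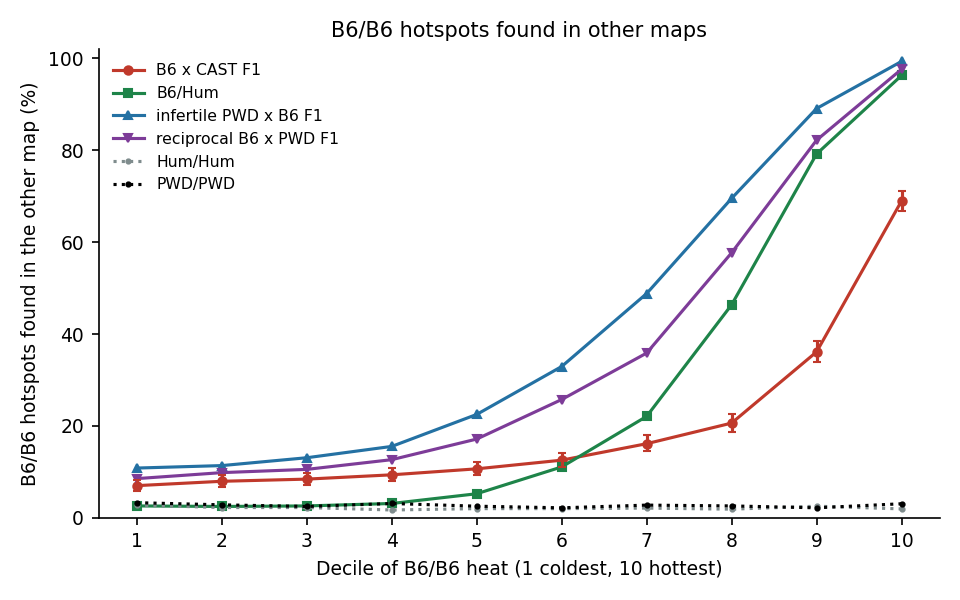
Percent of B6/B6 hotspots found within 1000 bp in other maps (y axis) by decile of B6/B6 heat (x axis, coldest to hottest). Bars on the B6 x CAST F1 line are Wilson 95% intervals, and dotted lines are maps without a B6 allele. The F1 line climbs to 69.0% in the hottest decile, below the B6/Hum, infertile and reciprocal lines at 96.3%, 99.4% and 97.6%.

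The B6 x CAST F1 kept fewer B6/B6 hotspots than the other maps with 1 B6 allele, at 19.8% against 27.1% in B6/Hum, 41.3% in the infertile and 35.8% in the reciprocal F1. In the hottest decile it kept 69.0%, against 96.3%, 99.4% and 97.6% in those maps. In the coldest decile the B6 x CAST F1 kept 7.01%, more than the 2.59% of B6/Hum and less than the 10.8% and 8.54% of the PWD hybrids. Maps with no B6 allele give a background for the pairing: 2.07% in the rescue, 2.79% in the Hum/PWD F1, 2.70% in the PWD/PWD and 2.14% in the Hum/Hum map, with 1.94 to 3.18% in the hottest decile. In the coldest decile these maps had 2.77 to 3.89%, so the 2.59% of B6/Hum there was no higher than this background. Of the 527 hottest-decile hotspots lost in the B6 x CAST F1, 456 (86.5%) were present in all 3 other maps with 1 B6 allele. The maps ran from 15019 to 23554 hotspots in length, and the part of list length in these shares was not tested.

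The rho of heat was lower in this hybrid than in the other maps with 1 B6 allele. Over each map's own shared sites, which differ between maps, the rho with B6/B6 heat was -0.04 in the B6 x CAST F1, 0.644 in B6/Hum, 0.294 in the infertile and 0.220 in the reciprocal F1. Maps without a B6 allele had a rho of 0.178 (PWD/PWD), 0.207 (Hum/Hum), 0.245 (Hum/PWD F1) and 0.267 (rescue). The reciprocal value lay within this range, the infertile value just above it and the B6 x CAST value below it. The part of the pairing background in these whole-site values was not tested. On the B6 chromosome the rho was 0.606 (B6 x CAST), 0.716 (infertile) and 0.730 (reciprocal), against 0.120 (Hum/PWD F1) and 0.141 (rescue). On the other chromosome it was -0.243 (B6 x CAST), 0.0146 (infertile) and -0.0924 (reciprocal), against 0.0473 (Hum/PWD F1) and 0.0343 (rescue). A set of 2022 B6/B6 hotspots was present in all 4 maps with 1 B6 allele. There the whole-site rho was 0.188 (B6 x CAST), 0.697 (B6/Hum), 0.335 (infertile) and 0.349 (reciprocal). At these common sites the rho on the B6 chromosome was 0.568 in the B6 x CAST, 0.612 in the infertile and 0.644 in the reciprocal F1, and on the other chromosome -0.0146, 0.0340 and 0.0267. The negative rho of the CAST portion was thus not seen at the sites found in all 4 maps. Median heat at these sites was 38.9 in the B6 x CAST F1, 76.35 in B6/Hum, 83.4 and 81.65 in the PWD hybrids and 227.95 in B6/B6 males. B6/Hum males have B6 chromosomes only, so no division of their heat by chromosome exists. No test of the differences between single maps was possible.

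B6 shares of a site ranked alike in the hybrids, though sites above 0.9 often changed class. Across sites also shared with the B6/B6 map, the B6 share in the B6 x CAST F1 and in the infertile F1 had a rho of 0.789 (n = 2697), and with the reciprocal F1 0.780 (n = 2593). Sites below 0.1 in the B6 x CAST F1 had a median B6 share of 0.019 in the infertile F1 (86.1% below 0.1) and 0.018 in the reciprocal F1 (86.9% below 0.1). Middle-class sites had medians of 0.477 and 0.474 there, with 72.8% and 71.0% again in the middle class. Sites above 0.9 had medians of 0.781 (n = 103) and 0.880 (n = 94), and 56.3% and 48.9% of them lay in the middle class there. CAST and PWD are both wild-derived strains, and these hybrids have the B6 chromosome and the B6 reference in common. Why the shares ranked alike was not tested.

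Kept hotspots carried more H3K4me3 in B6/B6 testis than lost ones. The median enrichment was 1.22 at kept and 0.330 at lost hotspots, a ratio of 3.71, and it was 0 at 6.73% of kept and 15.9% of lost hotspots. Kept hotspots were also hotter, so the ratio was read within deciles of heat. Within deciles the ratio lay between 0.755 and 1.13 in deciles 2 to 7 and was 1.23, 1.47 and 1.65 in deciles 8, 9 and 10. In the hottest decile the medians were 2.28 at kept and 1.38 at lost hotspots, where B6/B6 heat still differed, at 286.1 and 243.5. The coldest decile had a ratio of 1.77, from medians of 0.0333 and 0.0188 near the minimum of 0. Across all B6/B6 hotspots enrichment and heat had a rho of 0.673, and across lost ones 0.604. Counts of the pseudoreplicates had a rho of 0.933 over the bins, which measures counting noise and not biological spread.

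**Figure D5:**
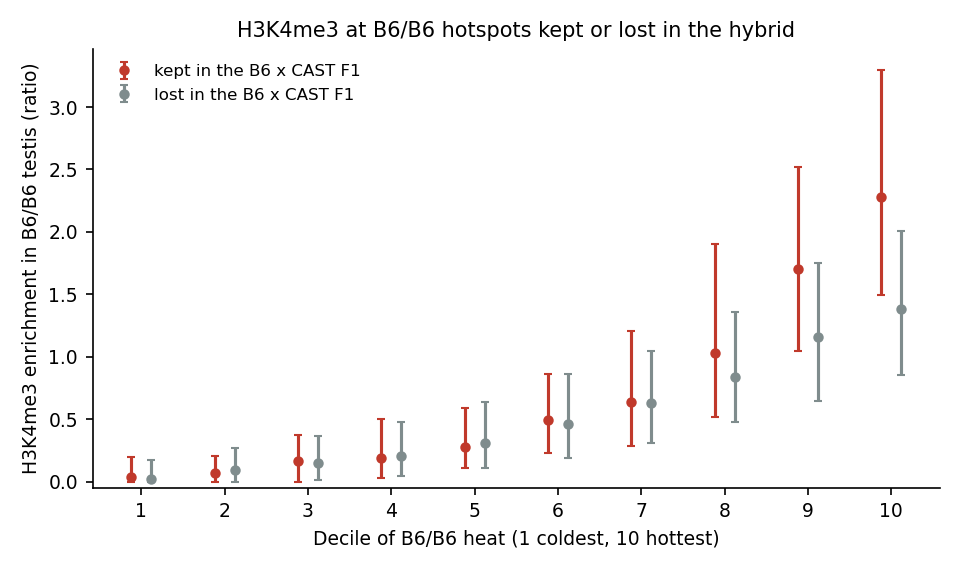
H3K4me3 enrichment in B6/B6 testis (y axis, ratio to local background) by decile of B6/B6 heat (x axis) for kept and lost B6/B6 hotspots. Points are medians and bars are quartiles across hotspots. Medians of kept and lost hotspots lie close up to the 7th decile and differ most in the hottest, at 2.28 and 1.38, where the quartile ranges still overlap.

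Cold B6/B6 hotspots lie close to the lowest heat called in the F1 map. If every lost hotspot were scaled by 0.196, the median ratio of the middle class of kept sites, its median would be 7.86, and 5549 of 13616 (40.8%) would lie below 6.1, that lowest heat. The same scaling would put 477 of 3358 kept hotspots (14.2%) below 6.1, although all of them were called in the F1 map. For the 527 lost hotspots of the hottest decile the scaled median was 47.7, where the lower limit of that decile, a heat of 208.3, by itself keeps the scaled values above 6.1. The ratio comes from kept sites only, with a median B6/B6 heat of 199.5, against 40.1 at lost hotspots. Over shared sites of any B6 share, the median ratio was 3.95 in their coldest and 0.193 in their hottest decile of B6/B6 heat. Shared sites had to be called in the F1 map, and the coldest of these deciles spans B6/B6 heats of 7.6 to 23.2. A low ratio at such sites would fall below 6.1 and not be seen, so these medians cannot show whether the ratio varies with heat. Whether a single ratio holds across heats, and the part of the calling limit in the losses, was not tested.

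Hotspots at gene starts were a small share of every set. No share for the autosomes or for flanking windows was computed, for gene starts or for genes. The values therefore compare the sets with one another and show neither excess nor avoidance. Of shared hotspots, 1.96%, 1.71% and 2.21% lay within 1000 bp of a protein-coding transcription start in the classes below 0.1, 0.1 to 0.9 and above 0.9, and of unshared ones 1.53%, 2.08% and 2.65%. Among B6/B6 hotspots it was 2.32% of kept and 2.05% of lost ones, with overlapping intervals. Within genes lay 55.1% (53.4 to 56.7) of kept and 52.0% (51.2 to 52.8) of lost B6/B6 hotspots, intervals that did not overlap. In the middle class of B6 share, 56.7% (54.5 to 58.8) of shared and 48.9% (47.9 to 49.9) of unshared F1 hotspots lay within genes. Below 0.1 the values were 53.8% of shared and 51.6% of unshared hotspots, and above 0.9 they were 51.5% and 52.4%, with overlapping intervals in both classes.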

How the data were processed

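All values came from deposited tables in mm10 coordinates, autosomes only. Per the submitters' processing notes, alignment was with BWA, and the H3K4me3 tables also used SAMtools and bedtools. How hotspots were called and filtered is not given in the sources used here. DMC1 heat is the authors' relative signal as deposited, of undefined scale, and the depth behind it is unknown. The B6 share is a fraction deposited by the authors. H3K4me3 fragment counts per 1 kb bin, and the enrichment as a ratio to local background, are as described per the file headers.

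F1 hotspots were paired to the nearest B6/B6 centre within 1000 bp. Shares carry Wilson 95% intervals for counting error only, and PCR reads are not independent molecules. With 1 library per DMC1 map no genotype was tested. Deciles are by B6/B6 heat. Named sites are the 3 hottest shared and unshared hotspots per class, the 5 hottest lost and the 3 highest and lowest heat ratios, leaving out sites with input above 10 times the table median in any of 5 H3K4me3 tables. Some unshared sites that meet this rule are not listed. The nearest gene comes from GENCODE M21. The members and lists were chosen with earlier results of these data known. Computation used pandas 2.3.3, SciPy 1.17.1 and NumPy 2.4.6 under Python 3.11.15, with plots from Matplotlib 3.10.9, and the pairing was tested on simulated data.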

Additional observations from a re-analysis of the deposited data

How the results depend on the processing

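Across 63 alternatives 52 values stayed within the interval of the reported one, 11 moved beyond it and 0 were reversed. Reversed means a rho that changed sign or a ratio of medians that crossed 1. Percentages and the median B6 share have no such limit, so they could not be counted as reversed. With pairs within 500 bp the kept share of B6/B6 hotspots was 19.0% and the rho of F1 heat on the B6 chromosome with B6/B6 heat 0.648. With pairs within 2000 bp they were 21.2% and 0.530, and the rho of the CAST portion was -0.204. The added pairs were farther apart by construction. The ratio of median F1 heat below to within the middle class was 2.71 with B6 share limits of 0.3 and 0.7 and 4.64 with 0.05 and 0.95, and the cause was not tested. Without sites also in the Hum/Hum or PWD/PWD map, an alternative chosen after seeing the data, the rho of the B6 portion was 0.629. The pooled rho of F1 and B6/B6 heat stayed between -0.0654 and -0.0370. Leaving out bins marked as PRDM9-independent, also chosen after seeing the data, gave an H3K4me3 ratio of 3.83. No paired analysis was possible because each DMC1 map is 1 library. Sites with high input were 34 of 3359 shared and 10 of 15381 unshared F1 hotspots.

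No spread between animals can be given for any DMC1 value. A weak hotspot can be missed in a map of unknown depth, so lost means not called within 1000 bp. B6 shares lack read numbers, and B6 and CAST portions are products that share a factor.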

Other observations

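A small set of B6/B6 hotspots was found in the B6 x CAST F1 and in none of the B6/Hum, infertile or reciprocal maps. It numbered 303, or 9.02% of the kept ones and 1.79% of all B6/B6 hotspots. Maps with no B6 allele had 2.07 to 2.79% of all B6/B6 hotspots within 1000 bp. The 303 come only from hotspots absent from the B6/Hum, infertile and reciprocal maps, so these percentages have different bases. The part of the pairing background in the set was not tested. Median heat of the 303 was 46.9 in F1 males and 33.3 in B6/B6 males. Their median B6 share was 0.150, and 40.7% of those with a share lay below 0.1. The median share was 0.519 at unshared F1 hotspots, of which 11.4% lay below 0.1, and 0.476 in shared pairs over 500 bp apart. At the other end 8964 of 16974 B6/B6 hotspots (52.8%) were called in no map with 1 B6 allele.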
